A study of Mus musculus with 12 samples.

Results

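The proteasome genes described here were the protein-coding genes of the count table whose symbol begins with Psma, Psmb, Psmc or Psmd and a digit. Symbols ending in -ps and the 3 immune subunit genes Psmb8, Psmb9 and Psmb10 were left out, and the mean over the 12 libraries had to reach 1 CPM (a count per 1000000 counts of the library). The names took 44 genes, of which 4 were -ps genes, 3 were immune subunits and 2 lay under the minimum, so that 35 of the 55401 genes in the table were kept. Of these, Psmc3ip fits by its letters alone: it encodes a partner protein of meiotic recombination and no part of the proteasome. The 34 others comprise 14 genes of the core particle, 17 of the regulatory particle and 3 chaperones that help to assemble the base of the regulatory particle. All 35 passed edgeR's filter on low counts and were among the 12620 genes tested.

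The proteasome is the protease that degrades most short-lived and misfolded proteins of the cytosol and nucleus once they carry a ubiquitin chain. Its core particle is a barrel of stacked rings: alpha subunits form the outer rings and gate the entrance, and beta subunits form the inner rings and hold the proteolytic sites. The regulatory particle caps the barrel, with a base whose ATPases unfold the substrate and a lid that removes the ubiquitin chain. In macrophages the same machine also makes peptides for presentation on MHC class I, and interferon induces immune versions of the catalytic beta subunits.

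The cells were macrophages grown from the bone marrow of C57BL6 background mice, for which the labels name no further allele, and bulk RNA was sequenced. Marrow cells were grown with macrophage colony-stimulating factor (M-CSF, 20 ng/mL) and taken on day 7. The young group came from animals aged 8 weeks (6 libraries) and the old group from animals aged 12 months (6 libraries), and neither carries another treatment in its labels. Replicates are titled as biological ones, but no label says that each was a separate animal, so the p-values below reflect the spread between these libraries only.

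Total assigned counts ranged from 22.2 to 25.2 M in young and from 19.3 to 22.4 M in old libraries (M, 1000000 counts). Each of the 34 proteasome genes had at least 277 counts in every library. All 6 macrophage markers were measured, with a summed level of 26805 to 44125 CPM in young and 32116 to 42847 CPM in old libraries. Their mean levels ran from 14.6 to 23162 CPM per kb of exon (median 566), so the sum rests largely on the most abundant. Of the 6, 4 had a negative and 2 a positive estimate (log2 fold change -0.20 to 0.35). In edgeR 1 had an unadjusted p below 0.05 and 0 were called. Gm49368 overlaps 68.7% of the exon length of the marker Itgam on the same strand. Old replicate 6 also held transcripts of some markers from the list for T and natural killer cells. There Cd3e stood at 2.28 CPM, Cd3g at 5.08 CPM and Nkg7 at 8.60 CPM, while Ncr1 was at 0. The sum over these 4 markers was 0 CPM in every young library and spanned 0 to 15.96 CPM in old libraries. The 5 neutrophil markers summed to 7.72 to 24.9 CPM in young and 4.66 to 39.9 CPM in old libraries. Of these 2 were tested, both with positive estimates (median log2 fold change 0.41) and 0 called. Markers listed for dendritic, B and plasma, erythroid, and stromal and endothelial cells summed to at most 2.56 CPM per list in any library. A list of 30 cell cycle genes averaged 6.85 log2 CPM in young replicate 6. In the old group replicate 2 (6.24) and replicate 3 (5.69) were high on this list, and the other 9 libraries lay between 4.10 and 5.33.

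Many proteasome genes are known targets of the factors NFE2L1 and NFE2L2, which bind antioxidant response elements, and of NF-Y, which binds CCAAT. The RefSeq promoter table (GRCm38.p6) held 30 entries for 28 of the 34 genes. Psmb1, Psmb2, Psmb7, Psmc3, Psmd3 and Psmd7 had no entry. The 250 bases before each start were searched on both strands for TGACNNNGC and TGAGNNNGC, 2 forms of the antioxidant response element core, and for CCAAT. No match of one motif overlapped a match of another in these promoters. For 26 of the 30 entries the last bases, after the start, lay in an annotated transcript of the gene. TGACNNNGC was found in 5 of the 30 (16.7%, against 10.2% of all 32851 promoters in the table). TGAGNNNGC was found in 9 of the 30, from 8 genes (14.4% of all promoters). At least 1 of these 2 forms was present in 12 entries, from 11 genes (40.0% of entries against 23.0%), and CCAAT was present in 11 (36.7% against 33.8%). These are letter matches and do not show binding.

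The windows below show all 5 promoters with TGACNNNGC, and the CCAAT matches of Psma6 and Psma7, the 2 genes of lowest p. Capitals mark the motif, each window is written 5′ to 3′ on the strand of its gene, and a motif on the opposite strand appears as its reverse complement. The Psma6 windows lie at chr12:55384061-55384115 and chr12:55384168-55384221 (plus strand), the Psma7 window at chr2:180042631-180042685 (minus) and the Psmb5 window at chr14:54618009-54618067 (minus). The Psmb6 window lies at chr11:70525323-70525356, Psmc6 at chr14:45329574-45329630, Psmd12 at chr11:107479278-107479314 and Psmd9 at chr5:123228134-123228189, all on the plus strand.
Psma6 distal: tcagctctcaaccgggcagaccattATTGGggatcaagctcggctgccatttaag
Psma6 proximal: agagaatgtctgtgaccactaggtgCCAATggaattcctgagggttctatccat
Psma7: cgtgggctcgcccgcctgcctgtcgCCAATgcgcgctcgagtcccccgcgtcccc
Psmb5: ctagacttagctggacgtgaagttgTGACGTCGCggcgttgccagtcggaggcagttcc
Psmb6: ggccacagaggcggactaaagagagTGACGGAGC
Psmc6: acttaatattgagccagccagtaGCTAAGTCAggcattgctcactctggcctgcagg
Psmd12: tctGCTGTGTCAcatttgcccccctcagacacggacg
Psmd9: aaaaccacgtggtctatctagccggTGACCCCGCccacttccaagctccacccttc

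The catalytic genes Psmb5 and Psmb6 carry the motif close to their start, with its far base 47 and 9 bases upstream. In Psmd9 it lies 31 bases upstream. In Psmc6 and Psmd12 the match is on the opposite strand and distant, at 227 and 247 bases.

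Between young and old macrophages no proteasome gene passed the threshold: 0 of 34 had an adjusted p below 0.05 in edgeR's quasi-likelihood test, with Benjamini-Hochberg adjustment over 12620 genes (adjusted p from 0.77 to 0.99). DESeq2 and limma voom called 0 of 34 as well. Over all genes tested, 2 (0.0158%) passed in edgeR. At an unadjusted p below 0.05 there were 2 proteasome genes, Psma6 and Psma7, both with lower estimates in old. That is 2 of 34, where 5.47% of all genes lay below 0.05 in either direction and 2.24% did with a lower estimate in old. The log2 fold change of old against young was negative for 33 of 34 genes, where 52.5% of all genes tested had a negative value, and 56.0% of the 3724 genes with a mean of at least 50 CPM. Most of the 34 had their extremes in the same libraries (given below), so they are not 34 independent observations. The median was -0.14 for the 34 genes and -0.01 for all genes tested. Values of the young and old libraries overlapped for all 34 (groups that do not overlap: 0.206% of all genes). In bulk RNA, a smaller share of cells of one type and less RNA per cell cannot be told apart.

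The shift in estimates rested in part on young replicate 6, whose proteasome levels were high. Without it the median over the 34 genes was -0.05, and 28 of 34 had a negative value. Without old replicate 6, the library with T cell transcripts, the median was -0.11 and 31 of 34 were negative, with no gene below an unadjusted p of 0.05 and adjusted p of at least 0.9986 in edgeR. With 1 library left out, the number of proteasome genes at an unadjusted p below 0.05 ran from 0 (without young replicate 4, 5 or 6, or any old library other than replicate 2) to 9 (without old replicate 2, where 1612 genes of the whole table were below it).

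**Figure D1:**
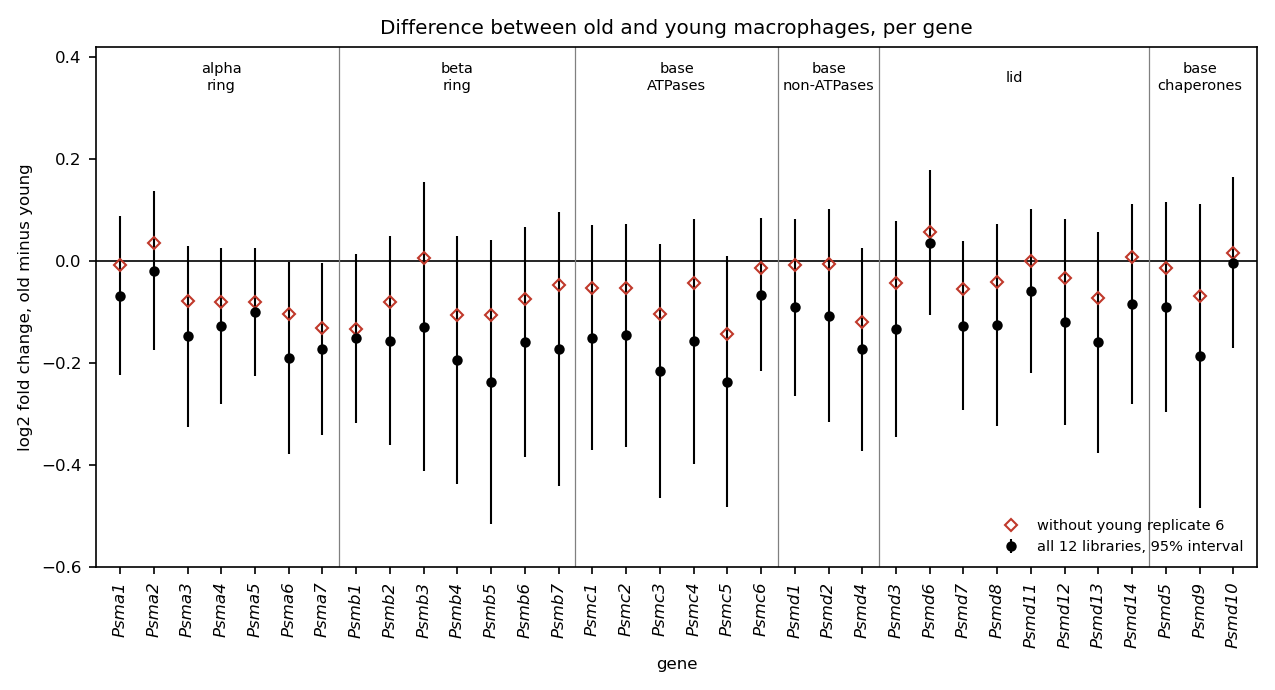
Log2 fold change of each proteasome gene, old minus young, from the fit to all 12 libraries (black points with 95% intervals) and without young replicate 6 (open red diamonds), with genes on the horizontal axis by structural class. With all libraries 33 of 34 points lie below 0, and every interval other than those of Psma6 and Psma7 crosses 0; without young replicate 6, 28 of 34 diamonds lie below 0.

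The core particle summed to 1549 ± 194 CPM in young (SD, n = 6; range 1393 to 1894) and to 1402 ± 114 CPM in old libraries (n = 6; 1253 to 1599). All 14 core genes had a negative log2 fold change, with a median of -0.15. The regulatory particle summed to 2189 ± 320 CPM in young (1961 to 2816) and 1999 ± 123 CPM in old libraries (1895 to 2214). Of its 17 genes 16 had a negative value, with a median of -0.13. Without young replicate 6 these medians were -0.08 and -0.04, and the core genes Psma2 (0.04) and Psmb3 (0.0064) had positive values. Psma2 was also positive without old replicate 6 and with the cell cycle level in the fit, at 0.01 in both. The ratio of the core sum to the regulatory sum was 0.709 ± 0.025 in young and 0.701 ± 0.024 in old libraries, a difference smaller than either SD. The median level of a particle in each library, relative to gene means, had a pooled SD within groups of 0.15 log2 for both particles.

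Levels per kb of exon, the scale on which genes were compared with each other, spanned 3.42 to 120 CPM per kb over the 34 genes, with a median of 35.4. The lid gene Psmd8 was highest at 120, followed by the catalytic Psmb6 at 97.1 and the alpha gene Psma6 at 83.3. The lowest were the chaperone genes, at 3.42 (Psmd9) to 9.97 (Psmd10), and the lid gene Psmd11 at 8.61. The exon length is the union of all annotated transcripts, so a gene with long, rarely used exons is placed too low on this scale. Within a class the levels also differed: the beta ring ran from 15.8 (Psmb7) to 97.1 (Psmb6), and the lid from 8.61 to 120.

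**Figure D2:**
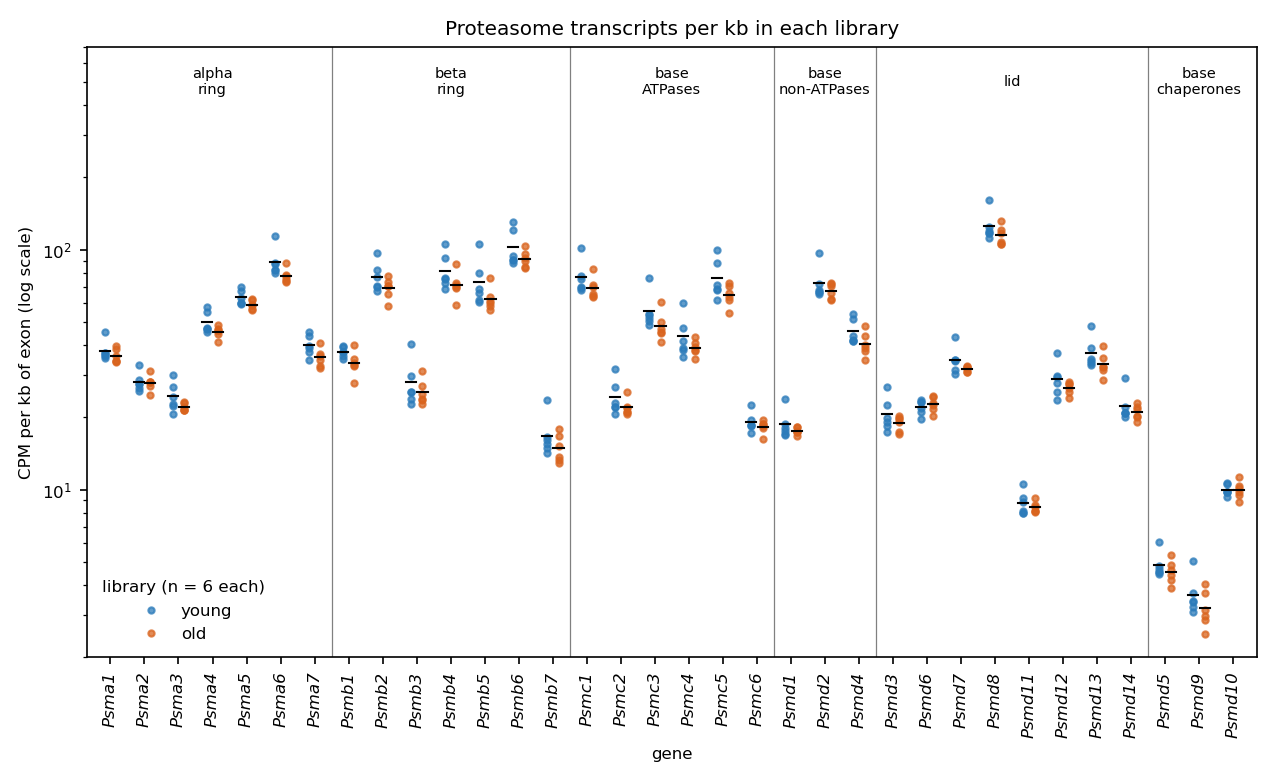
Level of each proteasome gene in each library, in CPM per kb of exon on a log axis, with genes on the horizontal axis by structural class, points for libraries (blue young, orange old, 6 each) and black lines for group means. The lid gene Psmd8 is highest (mean 120), the chaperone gene Psmd9 is lowest (mean 3.42), and young and old points overlap for every gene.

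The alpha ring had a median log2 fold change of -0.13, with 7 of 7 genes negative. Psma6 (ENSMUSG00000021024, chr12:55384222-55418454, plus strand, GRCm38) was the alpha gene with the highest level per kb and carries the pair of CCAAT matches printed above. Its lowest, median and highest values were 98.4, 104 and 140.5 CPM in young and 90.8, 94.4 and 109 CPM in old libraries. Young replicate 6 and old replicate 2 were the high libraries, and old values lay under the lowest young value in 5 of 6. The log2 fold change was -0.19 (SE 0.09, 95% interval -0.38 to -0.0024, unadjusted p = 0.047, edgeR adjusted p = 0.77), and -0.10 without young replicate 6 (unadjusted p = 0.099).

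Psma7 (ENSMUSG00000027566, chr2:180036374-180042433, minus strand) ran through 107, 121 and 139 CPM in young and 98.2, 109 and 126 CPM in old libraries (lowest, median, highest). The groups overlapped, with 3 of 6 old values under the lowest young one. Its log2 fold change was -0.17 (SE 0.08, unadjusted p = 0.046, edgeR adjusted p = 0.77), and it was -0.13 without young replicate 6. Psma3 had the lowest level per kb of the ring, 23.3. It ran through 80.7, 91.6 and 117 CPM in young and the narrow span of 83.6, 85.0 and 90.04 CPM in old, all 6 old values inside the young range. The 4 other alpha genes had log2 fold changes between -0.13 and -0.02.

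In the beta ring the median was -0.16, again with 7 of 7 negative. Psmb5 encodes the subunit with chymotrypsin-like activity, the main target of the inhibitor bortezomib (ENSMUSG00000022193, chr14:54614119-54618022, minus strand). Its lowest, median and highest values were 54.4, 60.4 and 94.6 CPM in young and 50.2, 54.5 and 68.3 CPM in old libraries. Only young replicate 6, at 94.6, and replicate 5, at 71.8, lay above all old values. The estimate was the most negative of the 34, at -0.24 (SE 0.13, edgeR adjusted p = 0.77), which is a difference of -15.2% with a 95% interval from -30.1% to 2.87%. Without young replicate 6 it was -0.11. The gene Mir686 overlaps 12.1% of its exon length on the same strand, so reads over those bases cannot be assigned to either gene alone.

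Psmb6, the caspase-like subunit, ran through 165, 173 and 244 CPM in young and 157, 171 and 194 CPM in old libraries. Psmb7, the trypsin-like subunit, ran through 48.5, 53.8 and 80.8 CPM in young and 43.9, 49.3 and 61.3 CPM in old libraries. In both genes young replicate 6 and old replicate 2 were highest in their group and old replicate 6 was lowest. The log2 fold change was -0.16 (SE 0.10) for Psmb6 and -0.17 (SE 0.13) for Psmb7, both with an adjusted p of 0.77 in edgeR. Without young replicate 6 the estimates were -0.07 and -0.05. Nek6 overlaps 11.8% of the Psmb7 exon length on the opposite strand, and these libraries keep no strand.

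Psmb1, a beta subunit without catalytic activity, had the lowest unadjusted p of its ring (0.069, edgeR adjusted p = 0.77). Its values were 161, 173 and 183 CPM in young (lowest, median, highest) and 128, 154 and 184 CPM in old libraries. It was the gene in which young replicate 6 stood least above the mean of the other young libraries, at 1.07 times. The log2 fold change was -0.15 (SE 0.08) with and -0.13 without that library. It did depend on old replicate 6, the lowest library at 128 CPM, without which the estimate was -0.10.

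The 6 ATPases of the base, which form the ring that unfolds substrates, had a median log2 fold change of -0.15, and all were negative. Psmc5 (ENSMUSG00000020708, chr11:106256154-106263120, plus strand) ran through 86.0, 97.5 and 139 CPM in young and 75.6, 90.3 and 102 CPM in old libraries. Young replicates 5 and 6 (123 and 139 CPM) lay above all old values, and the other young values overlapped the old ones. Its log2 fold change was -0.24 (SE 0.11, unadjusted p = 0.059, edgeR adjusted p = 0.77), or -0.14 without young replicate 6. Psmc1 had the highest level per kb of the ATPases, 73.2, with a young range of 131 to 197 and an old range of 122 to 160 CPM. Its estimate was -0.15 (SE 0.10) and -0.05 without young replicate 6. Psmc6, lowest per kb at 18.7, differed from the rest of the ring in that old replicate 6 was the highest old library (68.1 CPM, old median 64.8). Its young values ran through 60.3, 64.8 and 78.6 CPM, and the estimate was -0.07 (SE 0.07) and -0.012 without young replicate 6.

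Among the 3 other subunits of the base the median was -0.11. Psmd4, a receptor for ubiquitin chains, ran through 117, 120 and 151 CPM in young and 97.2, 111 and 135 CPM in old libraries. Young replicates 5 and 6 lay above all old values, and 4 of 6 old values lay under the lowest young one. The log2 fold change was -0.17 (SE 0.09, unadjusted p = 0.084, edgeR adjusted p = 0.77), and -0.12 without young replicate 6. The scaffold subunits Psmd1 and Psmd2 had estimates of -0.09 and -0.11.

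The lid had a median of -0.12, with 7 of 8 genes negative. Psmd8, the most abundant proteasome transcript per kb, ran through 342, 363 and 491 CPM in young and 322, 345 and 403 CPM in old libraries. Its estimate was -0.13 (SE 0.09, edgeR adjusted p = 0.77), and -0.04 without young replicate 6, which lay far above the next young library (381 CPM). Psmd14 encodes the metalloprotease that cuts off the ubiquitin chain. It ran through 56.4, 58.7 and 82.0 CPM in young and 53.8, 58.8 and 64.8 CPM in old, with the medians close together and all young libraries except replicate 6 inside the old range. Its estimate was -0.08 (SE 0.09) and 0.0086 without young replicate 6.

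Psmd6 was the single gene with a positive estimate, 0.04 (SE 0.07, edgeR adjusted p = 0.90), a difference of 2.55% with a 95% interval from -7.09% to 13.2%. It ran through 55.2, 63.0 and 66.3 CPM in young and 56.6, 63.6 and 68.5 CPM in old libraries. Its order of libraries was unlike that of most of the set: old replicate 2 was the lowest old library and old replicate 6 the highest. Psmd11, lowest per kb in the lid, also had old replicate 6 as its highest old library (58.9 CPM) and young replicate 6 as its highest young one (67.1 CPM). Its estimate was -0.06 (SE 0.07) and 0.00031 without young replicate 6.

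The chaperones of the base, which leave before the particle is complete, had a median of -0.09. Psmd9 ran through 22.3, 24.6 and 36.6 CPM in young and 18.03, 22.2 and 29.4 CPM in old libraries, with young replicate 6 and old replicate 2 high and old replicate 6 lowest of all 12. Its estimate was -0.19 (SE 0.14) and -0.07 without young replicate 6. Psmd10, also called gankyrin, ran through 13.7, 14.4 and 15.7 CPM in young and 12.99, 14.6 and 16.6 CPM in old. Its estimate was -0.0027 (SE 0.08), a difference of -0.18% with a 95% interval from -11.1% to 12.1%. Psmc3ip, the gene of another function, was far less abundant, with 1.77, 2.29 and 8.69 CPM in young and 1.12, 2.37 and 2.98 CPM in old libraries.

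Most of these genes had their extremes in the same libraries. Young replicate 6 was the highest young library for 32 of 34 genes (94.1%, against 34.4% of all genes tested). Old replicate 2 was the highest old library for 27 of 34 (79.4% against 29.2%), and old replicate 6 the lowest for 22 (64.7% against 26.2%). In the young group, replicate 3 was lowest for 18 genes (52.9% against 14.2%). The 2 genes for which young replicate 6 was not highest were Psma5 and Psmd10, and there young replicate 5 was.

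Set against the mean of the 5 other young libraries, young replicate 6 stood 1.07-fold (Psmb1) to 1.58-fold (Psmb3) higher, with a median of 1.35 and all 34 genes above 1. Old replicate 2 stood 0.873-fold (Psmd6) to 1.34-fold (Psmd9) relative to the other old libraries, with a median of 1.16 and 32 genes above 1. All 14 core genes were highest there, and 10 of 17 regulatory genes. Old replicate 6 had a median of 0.897, was below 1 for all 14 core genes, and was above 1 for 6 of 17 regulatory genes. Its core to regulatory ratio of 0.658 was the lowest of the 12 libraries, and young replicate 5 had the highest, 0.747.

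**Figure D3:**
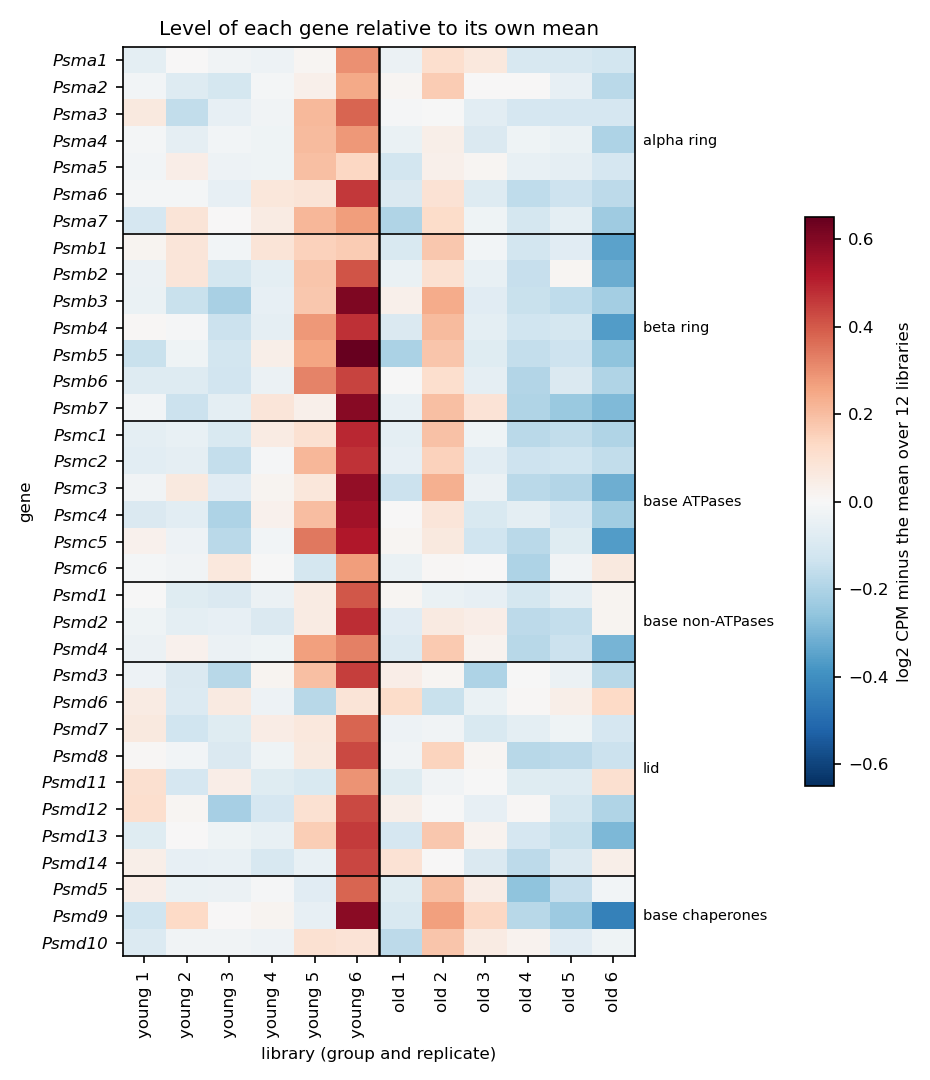
Log2 CPM of each proteasome gene minus its own mean over the 12 libraries (red above, blue below), with genes as rows by structural class and libraries as columns. Young replicate 6 is above the mean for all 34 genes, old replicate 2 for 28, and old replicate 6 for 6.

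Young replicate 6 and old replicate 2 were also the libraries with the highest cell cycle level in their groups (6.85 and 6.24 mean log2 CPM). Old replicate 3, the next at 5.69, also had the next highest sums of the old group, 1432 CPM for the core and 2038 CPM for the regulatory particle. The regulatory sums put the old libraries in the same order as the cell cycle level did. The core sums did not: replicate 6 had the lowest (1253 CPM, cell cycle level 4.18), below replicate 4 (1351 CPM, 4.10). In the young group the orders differed: replicate 5 had the lowest cell cycle level (4.43) and the next highest sums after replicate 6 (1664 and 2229 CPM). The cell cycle list itself had a median log2 fold change of -0.30 in old against young, with 29 of 30 genes negative and 0 called. When that level entered the edgeR fit as a term, 31 of 34 proteasome genes had a negative estimate and the median was -0.10. The part of cell cycle level in the proteasome levels was not tested, nor was that of the T cell transcripts in old replicate 6.

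The spread between libraries was larger in young than in old for most of these genes. Over the 31 proteasome genes with a mean of at least 50 CPM, the median SD of log2 CPM was 0.20 in young and 0.11 in old libraries, against 0.16 and 0.13 over the 3724 genes of that level. The SD was larger in young for 29 of 31, as it was for 67.7% of the 3724. Without young replicate 6 the median young SD was 0.098, and 13 of 31 were larger in young. The smallest SD in old was 0.037 (Psmd7) and the largest in young 0.30 (Psmb5).

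**Figure D4:**
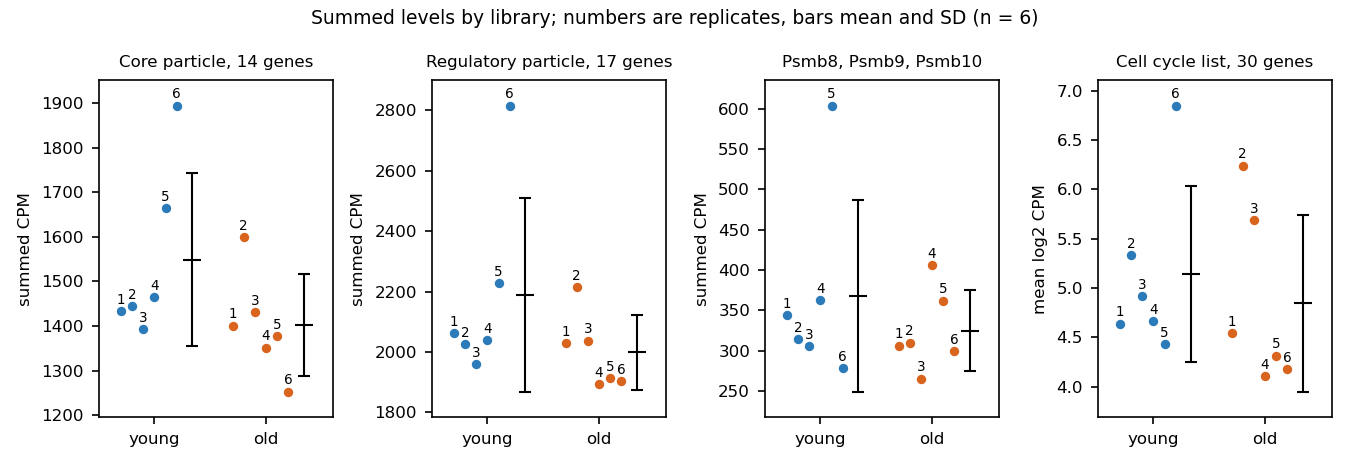
Summed CPM of the core particle, the regulatory particle and the immune subunits, and mean log2 CPM of the cell cycle list, for each library (points numbered by replicate, blue young, orange old), with group mean and SD (n = 6). Young replicate 6 is highest in the young group for both particles (1894 and 2816 CPM) and for the cell cycle list, and lowest for the immune subunits (279 CPM).

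The immune subunits Psmb8, Psmb9 and Psmb10, which replace Psmb5, Psmb6 and Psmb7 in the immunoproteasome, had another order of libraries. Their sum was highest in young replicate 5 (604 CPM) and lowest of the young group in replicate 6 (279 CPM). Per kb, the ratio of Psmb8 to Psmb5 ran through 0.320, 0.472 and 0.688 in young (lowest, median, highest) and 0.404, 0.496 and 0.563 in old libraries. For each of the 3 pairs young replicate 6 had the lowest ratio and young replicate 5 the highest, and in the old group replicate 3 the lowest and replicate 4 the highest. None of the 3 immune genes was called, with log2 fold changes of -0.24 (Psmb8), -0.13 (Psmb9) and -0.17 (Psmb10) and edgeR adjusted p from 0.77 to 0.87.

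No gene of the other lists of the pathway passed the threshold either (the same test, 0.0158% of all genes called). The 2 subunits outside the name rule both had negative estimates: Adrm1, a ubiquitin receptor, at -0.12 (SE 0.09) and Sem1, a small lid protein, at -0.05 (SE 0.06). The list of assembly factors had 6 genes. The 5 that act on the core (Pomp and Psmg1 to Psmg4) were tested and were all negative with a median of -0.23, below the medians of both particles. Young replicate 6 was the highest young library for Psmg1 to Psmg3 (Psmg2 at 26.8 CPM, young median 14.7), and replicate 5 for Psmg4 and Pomp. The median of this list without young replicate 6 is not given here. Paaf1, a chaperone of the base ATPases, was not analysed here. The lowest p among the 5 was that of Psmg4, which ran through 16.9, 20.3 and 26.5 CPM in young and 15.8, 17.6 and 20.7 CPM in old libraries (log2 fold change -0.23, SE 0.11, edgeR adjusted p = 0.77). All 6 old values of Psmg4 lay under the young mean, and 3 lay under the lowest young value.

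Activators and inhibitors had 5 negative and 2 positive values, with a median of -0.07. Psme2, part of the interferon-induced cap that opens the core without ATP, was the most abundant of these per kb (96.6). It was highest in young replicate 5 (259 CPM) and not in replicate 6 (172 CPM), as the immune subunits were. Fam192a, whose protein binds the nuclear cap protein PSME3, had the lowest p of the list (log2 fold change -0.11, SE 0.07, edgeR adjusted p = 0.77).

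Genes of transcriptional control had 3 negative and 9 positive values, with a median of 0.02. Nfe2l2, the most abundant per kb (110), ran through 311, 416 and 461 CPM in young and 368, 442 and 486 CPM in old libraries. Bach1, a repressor at the same promoter elements, ran through 46.7, 97.6 and 115 CPM in young and 75.2, 111 and 146 CPM in old libraries, with an estimate of 0.29 (SE 0.20, edgeR adjusted p = 0.77). For both genes young replicate 6 was the lowest young library and old replicate 2 the lowest old library, the reverse of most proteasome genes. The same held for Ddi2, Ngly1 and Mafk. Such an order is common: young replicate 6 was the lowest young library for 31.5% of all genes tested. Old replicate 2 was the lowest old library for 27.8%, and the share with both was not computed. Other genes of the list went the other way. Nfe2l1 was highest of the young group in replicate 6 (247 CPM, young median 191), although old replicate 3 was its highest old library (214.5 CPM). Nfyb and Nfyc, subunits of NF-Y, were highest in young replicate 6 (16.4 and 27.8 CPM) and in old replicate 2 (14.8 and 24.3 CPM). The NF-Y subunit Nfya differed: old replicate 2 was its lowest old library (13.7 CPM) and old replicate 6 its highest (28.6 CPM). Its highest young library was replicate 1 (20.2 CPM).

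The 24 genes of ubiquitin supply and shuttling had 14 negative and 10 positive values, with a median of -0.04. An unadjusted p below 0.05 was found for 4 of 24 (5.47% of all genes tested). Rps27a, which encodes ubiquitin fused to a ribosomal protein, ran through 740, 810 and 878 CPM in young and 581, 706 and 802 CPM in old libraries, with 5 of 6 old values under the lowest young one. Its log2 fold change was -0.21 (SE 0.08, edgeR adjusted p = 0.77). Ubqln2, a shuttle that carries ubiquitinated proteins to the proteasome, had a positive estimate of 0.22, again with an edgeR adjusted p of 0.77.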

How the data were processed

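The authors deposited whole, unnormalised counts of reads per gene for 12 libraries, made with featureCounts 1.6.0 and Ensembl release 100 gene models (GRCm38), with no strand setting and without multiply aligned reads, per the file headers. The submitters' processing notes also list STAR, FastQC and mm10, without versions. RNA was extracted with TRIzol and libraries were made with a TruSeq kit that keeps no strand, per the labels' protocols. Whether both mates of a pair were counted is not stated, so counts may exceed the number of molecules. All columns were matched to libraries by group letter and replicate number.

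CPM were computed here with TMM factors from the genes tested. Counts were tested with edgeR 4.0.16 (R 4.3.3; quasi-likelihood F test, robust fit, edgeR's own low-count filter, group as the single term, two-sided, Benjamini-Hochberg adjustment over 12620 genes, threshold 0.05), after the script had been tested on simulated data. In the simulated data 4% of 50 genes changed 1.2-fold were called, 30% at 1.5-fold and 76% at 2-fold. A count of 0 genes called therefore does not show that levels were equal. Log2 fold changes are old minus young. Psmb11 had 0 counts in all libraries, and a limit of 3 counts equals 0.119 to 0.155 CPM per library, for counting error only. Figures, sums and motif searches were made in Python 3.11.15. Alternatives were other scalings, filters, DESeq2 1.42.0, limma voom 3.58.1, a replicate block, a cell cycle covariate, and libraries left out.

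The members, lists and alternatives were chosen with earlier results of these data known. A rule set the named genes: per class the lowest unadjusted p and the highest and lowest level per kb, the catalytic Psmb5, Psmb6 and Psmb7, Psmd14, any gene called, not overlapping or with an unadjusted p below 0.05, and the extreme fold changes. In each pathway list the most abundant gene per kb and that of lowest p were named. Psma2, Psma5, Psmb3, Nfe2l1, Nfya, Nfyb, Nfyc, Ddi2, Ngly1, Mafk, Psmd1, Psmd2, Psmd7 and Psmd12 were named after their values or sequences were seen.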

Additional observations from a re-analysis of the deposited data

Results flagged for a closer look

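In 40 sets of 6 libraries (the young and old values of the 17 named proteasome genes, both particle sums and the cell cycle level among them), 9 held a library that stood apart from the others by Dixon's 95% critical value for 6 values. Chance flags about 1 in 20 for a single set, but these sets share the same 12 libraries and the particle sums contain the named genes, so that rate is no yardstick for 9 of 40. In 8 of the 9 the library was young replicate 6, at the high end. There Psma6 stood at 140.5 CPM (next young library 108), Psmb7 at 80.8 CPM (56.6), Psmc1 at 196.7 CPM (150.1), Psmd14 at 82.0 CPM (62.3), Psmd8 at 490.9 CPM (381) and Psmd9 at 36.6 CPM (26.7). The regulatory particle summed to 2816 CPM in it (2229), and the cell cycle list averaged 6.85 log2 CPM (5.33). The ninth was Psma6 in old replicate 2, at 109 CPM (next old library 96.4). What set these libraries apart was not tested.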

How the results depend on the processing

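Over 22 alternatives 0 proteasome genes were called by any of edgeR, DESeq2 and limma voom, and the count of negative estimates ran from 28 (without young replicate 6) to 33. The core median lay between -0.19 and -0.08 and the regulatory median between -0.17 and -0.04, both medians nearest 0 without young replicate 6. The count of genes called in the whole table was 2 and became 15 with DESeq2, 4 without the low-count filter, 5 with the cell cycle covariate, and between 1 and 5 with 1 library left out. With the replicate block it was 4, with 0 proteasome genes called, 33 negative and a median of -0.13. Same-numbered libraries did not all deviate together (r from -0.16 to 0.36, and 2 of 6 young libraries fitted their own number best). With only 6 numbers, these correlations cannot settle whether same-numbered libraries are pairs. Psmd10 changed sign under 7 alternatives: it was 0.0174 with library size scaling, 0.0146 with the cell cycle covariate, and from -0.0394 to 0.0295 with 1 library left out (positive without young replicate 5 or 6 or old replicate 1, 5 or 6). With 1 library left out Psmd11 ran from -0.0849 to 0.00031 and Psmd14 from -0.113 to 0.00858, both positive only without young replicate 6. Psmd14 was 0.0124 with the 3 libraries of highest cell cycle level left out. Of the genes outside the naming rule, Psma2 was positive under 3 alternatives and Psmb3 under 1. The cause was not tested. With those 3 libraries left out, 11 of 34 proteasome genes had an unadjusted p below 0.05, as did 2302 genes in all, and the lowest edgeR adjusted p was 0.16. Without old replicate 2 it was 9 of 34 and 0.38. Exon overlap with other genes, at most 12.1% for the 34, limits which gene the counts belong to.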

Other observations

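Psma8, an alpha subunit gene known from the testis, lay just under the minimum of the name rule with a mean of 0.992 CPM. It ran through 0.519, 0.735 and 1.18 CPM in young (lowest, median, highest) and 0.651, 1.18 and 1.87 CPM in old libraries, with the highest value in old replicate 6. Its log2 fold change was 0.58 (SE 0.32, edgeR adjusted p = 0.77), opposite in sign to the 7 alpha genes above the minimum. Young and old values overlapped, although all old values lay above the lowest young one. The lowest count in a library was 12.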
